A study of Mus musculus with 18 samples.

Results

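The genes described here were the mouse zinc finger protein (Zfp) genes from Zfp500 to Zfp999 in number, with no suffix. Every row of the ESC and EpiLC count tables with such a symbol was taken. This gave 184 of the 14411 genes that the tables held together, with 178 of 13104 genes in the ESC table and 180 of 13717 in the EpiLC table. Of these, 174 stood in both tables, Zfp521, Zfp703, Zfp711 and Zfp986 only in the ESC table, and Zfp503, Zfp575, Zfp579, Zfp593, Zfp608 and Zfp677 only in the EpiLC table. A further 23 annotated symbols of this number range stood in neither table.

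The question put to the cells was whether exposure to Δ9-tetrahydrocannabinol (Δ9-THC), the psychoactive cannabinoid of cannabis, changes transcription in pluripotent cells. Mouse embryonic stem cells (ESCs) of the female clone H18, which carries the Blimp1::mVenus and Stella::ECFP reporters, were kept on laminin in medium with 2i and LIF and exposed for 48 hr to Δ9-THC at 100 nM, or kept with ethanol alone (vehicle, mock-treated). Epiblast-like cells (EpiLCs), a culture model of the epiblast around implantation, were derived from the exposed or mock-treated ESCs with activin A and bFGF, under the same exposure. Each of these 4 groups had 3 libraries of poly(A) RNA, labelled as biological replicates 1 to 3, so 12 libraries were analysed. All of them came from 1 clone, which limits them as a model of other lines. The tables hold read counts per gene that the authors adjusted for batch with ComBat-seq, separately for each cell type.

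Most of these genes code for proteins of the C2H2 type, in which a short loop held by a zinc ion between paired cysteines and paired histidines reads a few bases of DNA. Fingers stand in tandem, joined by short linkers, and a protein with many of them can bind a long, specific site. A large share of the mouse genes also carries a Krüppel-associated box (KRAB) near the start of the protein, which binds the corepressor TRIM28. TRIM28 brings the histone methyltransferase SETDB1 and heterochromatin proteins, and in early embryos and ESCs this silences retrotransposons and protects imprinted loci. KRAB genes arose by repeated duplication and often lie in clusters, a few of which hold near-identical copies.

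By pattern searches in the annotated coding sequences (GENCODE M21, genome build GRCm38), 115 of the 184 genes had fingers with a KRAB pattern, 60 had fingers without it, and 9 (Zfp503, Zfp640, Zfp703, Zfp750, Zfp781, Zfp783, Zfp839, Zfp939 and Zfp972) had no finger pattern. Of these 9, Zfp640, Zfp783 and Zfp939 are annotated as pseudogenes. The label therefore held for 175 of the 184 genes. The median number of fingers was 12 in KRAB genes and 7.5 in the finger genes without KRAB, and the highest number was 33. Clusters, defined as at least 3 members with successive starts within 1 Mb, took in 115 genes in 18 clusters. Chromosome 7 held 49 of the genes, chromosome 17 held 25, chromosome 4 held 21 and chromosome 8 held 16.

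Sequences of single fingers show how the genes differ in base composition while the zinc-binding residues stay in place. Each stretch below is 78 bases of coding sequence, written 5′ to 3′ on the coding strand, and codes for 1 finger with its linker. Capitals mark the codons of the cysteines and histidines that hold the zinc. Zfp534 and Zfp987 are KRAB genes of the chromosome 4 cluster described below and show the AT-rich end. Zfp563 and Zfp961 are KRAB genes that were called higher in Δ9-THC-exposed ESCs in the main edgeR fit described below. Zfp568 is a KRAB gene that represses a placental Igf2 transcript. Zfp574 was called lower in exposed ESCs in that main fit, and Zfp771 is the gene with the highest GC content among the members. With the replicate number as a term, or with any 1 ESC library left out, edgeR called 0 members. The stretches lie in coding exons, on GRCm38, at chr4:147675074-147675151 (minus strand) for Zfp534, chr4:146124891-146124968 (plus strand) for Zfp987, chr17:33105363-33105440 (plus strand) for Zfp563, chr8:71968746-71968823 (plus strand) for Zfp961, chr7:30023060-30023137 (plus strand) for Zfp568, chr7:25081952-25082029 (plus strand) for Zfp574 and chr7:127253856-127253933 (plus strand) for Zfp771.
Zfp534: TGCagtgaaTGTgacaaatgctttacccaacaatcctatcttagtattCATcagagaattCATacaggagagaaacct
Zfp987: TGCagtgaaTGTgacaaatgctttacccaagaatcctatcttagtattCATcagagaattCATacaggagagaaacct
Zfp563: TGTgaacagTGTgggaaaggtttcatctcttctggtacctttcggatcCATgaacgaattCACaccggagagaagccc
Zfp961: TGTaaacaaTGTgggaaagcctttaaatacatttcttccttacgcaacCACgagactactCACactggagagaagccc
Zfp568: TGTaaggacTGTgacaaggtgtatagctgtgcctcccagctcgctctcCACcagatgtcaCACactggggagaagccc
Zfp574: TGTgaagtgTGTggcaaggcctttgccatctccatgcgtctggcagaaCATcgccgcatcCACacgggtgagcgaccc
Zfp771: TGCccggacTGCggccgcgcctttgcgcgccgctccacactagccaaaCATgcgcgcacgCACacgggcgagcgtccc

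The stretches of Zfp534 and Zfp987 had the same base at 77 of 78 positions. The difference was C31G, the Zfp534 base first, counted from 1 at the 5′ end of the stretch, and 25 of 26 residues were the same. Zfp534 and Zfp771 had the same base at 39 of 78 positions. GC content rose from 37.2% in the Zfp534 stretch to 73.1% in that of Zfp771, and at the third codon position from 26.9% to 76.9%. Over 851 such stretches in 138 members, GC content had a median of 42.3% in 111 KRAB genes and 59.0% in 27 finger genes without KRAB. The codon positions were unequal in this: the median at the first and second positions was 46.6% and 45.2% in KRAB genes against 53.8% and 53.8% without KRAB, whereas at the third position it was 31.4% against 73.1%.

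Promoters of 3 members are shown because in most members the promoter had a higher GC content than the transcript. Each holds 250 bases before and 50 bases after the annotated start (RefSeq, GRCm38.p6), with each CG in capitals. They lie at chr7:27929409-27929708 (minus strand) for Zfp974, chr4:147553027-147553326 (plus strand) for Zfp985 and chr7:127244276-127244575 (plus strand) for Zfp771. Zfp974 and Zfp985 are KRAB genes, and Zfp771 is a finger gene without KRAB.
Zfp974: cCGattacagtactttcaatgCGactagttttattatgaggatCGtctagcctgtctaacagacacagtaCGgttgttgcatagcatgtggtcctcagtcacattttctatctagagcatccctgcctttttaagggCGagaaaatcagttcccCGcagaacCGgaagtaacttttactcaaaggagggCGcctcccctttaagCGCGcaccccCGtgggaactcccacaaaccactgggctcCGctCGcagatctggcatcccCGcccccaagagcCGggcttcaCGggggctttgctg
Zfp985: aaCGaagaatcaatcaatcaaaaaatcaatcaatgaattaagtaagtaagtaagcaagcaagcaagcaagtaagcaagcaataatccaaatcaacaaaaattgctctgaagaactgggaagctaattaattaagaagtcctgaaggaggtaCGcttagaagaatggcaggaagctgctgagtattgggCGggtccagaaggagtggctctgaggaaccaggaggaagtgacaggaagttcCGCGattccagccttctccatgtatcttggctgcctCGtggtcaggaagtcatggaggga
Zfp771: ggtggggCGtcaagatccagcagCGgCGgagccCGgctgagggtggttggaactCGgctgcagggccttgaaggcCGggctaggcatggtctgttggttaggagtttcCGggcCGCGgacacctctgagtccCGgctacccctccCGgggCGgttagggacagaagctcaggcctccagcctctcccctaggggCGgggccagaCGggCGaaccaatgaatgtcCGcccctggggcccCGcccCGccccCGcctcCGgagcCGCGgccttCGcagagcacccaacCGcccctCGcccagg

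The Zfp974 promoter had a GC content of 53.3% with 16 CG, that of Zfp985 44.0% with 6 and that of Zfp771 71.7% with 25. RefSeq promoters matched 152 members by symbol. Their median GC content was 54.5% and their median number of CG was 13, against 52.8% and 7 over all 27025 promoters of the table. KRAB genes had a median of 10 CG and finger genes without KRAB 23. In 142 of the 152 members the promoter had a higher GC content than the transcript, and Spearman's rho between the GC contents was 0.56 across these members.

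Exonic GC content of the members had a median of 43.3% and ran from 34.9% to 64.5%, against a median of 49.3% over all genes of the ESC table and 49.4% over those of the EpiLC table. KRAB genes had a median of 40.6%, and finger genes without KRAB 52.1%. Many members also share sequence: in 56 of the 184, over 10% of the 50-base stretches of their exons also occurred in exons of another gene, and in 17 over 50% did. Reads were counted only where they mapped to a unique place, so counts of these genes are uncertain. The reads were paired and longer than 50 bases, so shared stretches may overstate the share of reads that fit several places. In 13 members over 10% of the exonic bases overlapped exons of another gene, and the counting did not use strand.

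Libraries held between 23427551 and 32096698 counts, and the members took between 0.398% and 0.598% of them. A member of median level had a mean of 413.5 counts per vehicle ESC library and 328 per vehicle EpiLC library, and the lowest had 17.0 and 15.7, so counting error is small for most of the genes and large for the lowest. The cell type labels held in the data. Genes of naive pluripotency (12 of 12 in both tables) summed to between 4895 and 5263 CPM in vehicle ESCs and between 518 and 551 CPM in vehicle EpiLCs, whereas formative and primed genes summed to between 382 and 406 CPM in vehicle ESCs, with Fgf5 not in that table, and to between 2090 and 2453 CPM in vehicle EpiLCs. Of 8 primitive endoderm genes, 1 was in the ESC table and 2 in the EpiLC table, at a sum of at most 3.39 and 9.88 CPM, and Gata6 and Sox17 were in neither. In bulk RNA, fewer cells of a type and less RNA per cell cannot be told apart.

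Levels in the vehicle libraries are given in CPM, counts scaled to a common library total, and between genes as CPM per kilobase of exon. The median member stood at 3.46 CPM per kilobase in ESCs and 2.98 in EpiLCs. The highest in ESCs was Zfp978, a KRAB gene of the chromosome 4 cluster, at 54.4 CPM per kilobase, with 78.5, 69.7 and 61.9 CPM in its 3 vehicle libraries. Zfp706, a small protein linked to exit from the naive state, followed at 49.1 CPM per kilobase with 246, 240.3 and 247 CPM. Zfp990 of the same cluster stood at 39.3, Zfp553 at 32.4 and Zfp568 at 31.5 CPM per kilobase. The 3 libraries of Zfp706 lay close together, and those of Zfp978 and Zfp990 were spread more widely, Zfp990 at 164, 139 and 109 CPM. In vehicle EpiLCs the order was Zfp978 (37.99 CPM per kilobase), Zfp706 (36.9), Zfp981 (30.1), Zfp990 (29.04) and Zfp979 (28.7), so that 4 of these 5 were genes of the chromosome 4 cluster. Levels per kilobase in this cluster are uncertain, since reads that fit several copies were not counted while the full exon length was used.

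Several members have a known role in silencing. Zfp809, which recognises the primer binding site of murine leukemia viruses, stood at 52.6 ± 2.03 CPM in vehicle ESCs (SD, n = 3) and at 41.1 ± 3.51 CPM in vehicle EpiLCs. Zfp961, which has been linked to another retroviral primer binding site, had 95.00 ± 1.06 and 51.6 ± 5.27 CPM. Zfp568 had 232 ± 7.26 and 95.4 ± 13.3 CPM. These 3 genes stood higher in ESCs, and their libraries did not overlap between the cell types. The share of all genes without such overlap is not given here, so this describes these genes only. Zfp932, a repressor of endogenous retroviruses, had 21.9 ± 2.06 and 23.6 ± 3.46 CPM, and its libraries did overlap. Zfp638, which takes part in silencing of unintegrated retroviral DNA, had 205 ± 4.73 and 155 ± 9.38 CPM. Zfp687, a partner of the chromatin reader ZMYND8, had 75.7 ± 1.84 and 61.2 ± 4.46 CPM, and Zfp622, a ribosome biogenesis factor, 74.96 ± 1.21 and 72.8 ± 3.35 CPM. Zfp638 was higher in every ESC library than in every EpiLC library, whereas Zfp622 lay at nearly the same level in both cell types.

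Between the cell types the levels are a description without a test, since the tables were adjusted separately and cell type and table cannot be told apart. Of the 174 members in both tables, 105 stood higher in vehicle ESCs and 69 in vehicle EpiLCs, with a median log2 ratio of EpiLC over ESC of -0.17, against -0.00014 over the 12410 genes in both. The 175 other numbered Zfp genes in both tables had a median of -0.27, with 119 higher in ESCs, so the tilt was not particular to the members. KRAB genes had a median of -0.27 (73 of 113 higher in ESCs) and finger genes without KRAB -0.047 (29 of 54). More than 2-fold higher in ESCs were 23 members (13.2%, all genes 10.6%), and more than 2-fold higher in EpiLCs were 15 (8.62%, all genes 11.1%).

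Zfp977, a KRAB gene, had 20.98, 20.5 and 18.8 CPM in the vehicle ESC libraries and 3.54, 4.05 and 2.79 CPM in the vehicle EpiLC libraries, which made it the member with the largest ratio in favour of ESCs, at 5.80-fold. It was followed by Zfp975 at 3.79-fold, Zfp971 at 3.72-fold, Zfp704 at 3.56-fold and Zfp551 at 3.30-fold. None of these 5 overlapped between the cell types, which adds little for genes chosen by this ratio. Zfp977 and Zfp975 lie in 1 cluster on chromosome 7 (chr7:41633203-43618285, 9 members, all KRAB), in which 5 of 9 members stood more than 2-fold higher in ESCs and the median log2 ratio was -1.18. Zfp819, a KRAB gene linked to retroelement silencing in pluripotent cells, lies in the same cluster and was 1.83-fold higher in ESCs. In the other direction, Zfp618, a partner of UHRF2, had 1.07, 0.693 and 0.954 CPM in the vehicle ESC libraries and 7.69, 6.47 and 7.83 CPM in the vehicle EpiLC libraries, 8.11-fold higher in EpiLCs. The next were Zfp953 at 4.47-fold, Zfp783 at 2.97-fold, Zfp948 at 2.92-fold and Zfp692 at 2.84-fold. Zfp975 and Zfp971 share 30.4% and 51.1% of their 50-base stretches with other genes, and 16.6% of the exonic bases of Zfp704 overlap another gene.

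**Figure D1:**
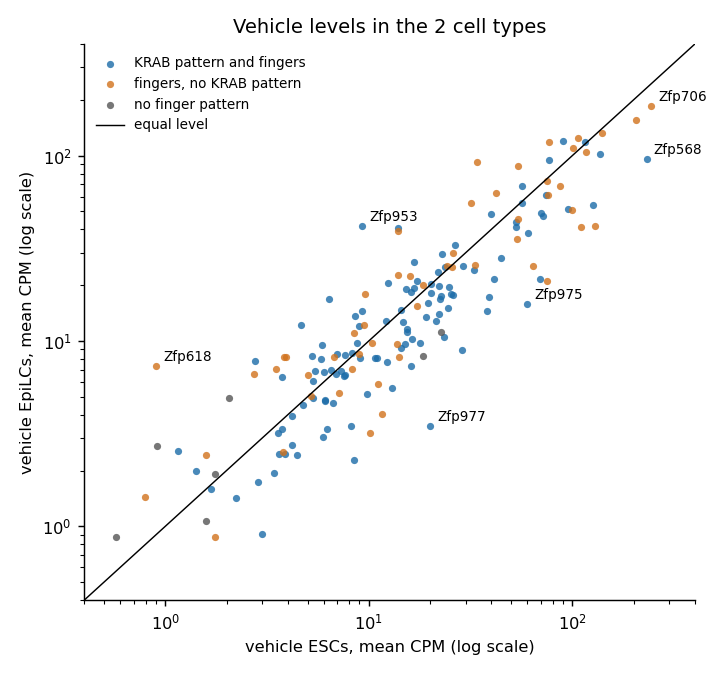
Level of each member in vehicle ESCs (x axis) and vehicle EpiLCs (y axis), in CPM on log axes, as the mean of 3 libraries, with KRAB genes, finger genes without KRAB and genes without a finger pattern marked apart. Of the 174 members in both tables, 105 lie on the ESC side of the line of equal levels, and Zfp977 and Zfp618 lie farthest from it on either side.

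In ESCs, Δ9-THC went with small rises in many members and falls in a few. In the quasi-likelihood test of edgeR, with Benjamini-Hochberg adjustment over all 13104 genes and called at an adjusted p of at most 0.05, 15 of 178 members changed, against 6.91% of all genes. Of these, 10 rose, against 3.37% of all genes, and 5 fell, against 3.55%. The median log2 fold change of the members was 0.11, against 0.0041 over all genes, and 131 of 178 (73.6%) were above 0. At an unadjusted p under 0.05, 53 members were higher and 16 lower, against 14.9% and 13.8% of all genes, and the 3 Δ9-THC libraries lay above the 3 vehicle libraries in 56 members and below them in 18, against 16.7% and 15.9%. P-values measure the spread left between these libraries after the adjustment by the authors. The libraries also differed with exposure in other ways. A single gene without a symbol in the references (ENSMUSG00000119584) took 0.477% to 0.639% of the counts in the vehicle ESC libraries and 2.46% to 3.19% in the exposed ones. Of 9 formative and primed genes in the ESC table, Pou3f1 (3.83 against 1.97 CPM, log2 fold change -0.96, adjusted p = 0.0265) and Sox3 (3.99 against 3.02 CPM, -0.40, adjusted p = 0.0498) were called lower in exposed ESCs by edgeR. Of the 9, 3 were above 0, among them Otx2 (0.22, adjusted p = 0.122, edgeR). With the GC and length correction described below, neither Pou3f1 (-0.74, adjusted p = 0.0848) nor Sox3 (-0.13, adjusted p = 0.554) was called by edgeR. The part of these differences in the values of the members was not tested.

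These calls depended on each library and on the model. With the replicate number as a term, edgeR called 0 members and 0.0382% of all genes, with 43 members at an unadjusted p under 0.05 and a smallest adjusted p of 0.414 among the members. Leaving out any 1 of the 6 ESC libraries left 0 members called by edgeR, and 0 or 1 of all genes, with 42 to 76 members at an unadjusted p under 0.05 and a median log2 fold change between 0.077 and 0.15. For the fits with the block or a left-out library, the share of all genes at that unadjusted threshold is not given here. Their unadjusted counts therefore do not set the members apart from other genes. DESeq2 called 14 members, 13 higher and 1 lower, against 7.19% of the genes for which it gave an adjusted p, and 5 of the 15 edgeR calls were among them. With a correction for GC content and length of the genes, described further below, 0 members were called by edgeR, 34 had an unadjusted p under 0.05 (18.6% of all genes) and the median was 0.035.

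Of the 10 members that rose, 9 were KRAB genes, and KRAB genes were 114 of the 178 members measured. Zfp563 (ENSMUSG00000067424, chr17:33089310-33110705), a KRAB gene with 10 fingers, had 6.30, 6.89 and 6.78 CPM in the vehicle libraries and 9.59, 8.83 and 9.02 CPM in the Δ9-THC libraries (log2 fold change 0.46 ± 0.065 SE, adjusted p = 0.0283, edgeR). The 3 exposed libraries all lay above the 3 vehicle libraries. Zfp961 had 96.2, 94.3 and 94.4 CPM in the vehicle libraries and 106, 109 and 109 CPM in the Δ9-THC libraries (log2 fold change 0.18 ± 0.026 SE, adjusted p = 0.0283, edgeR), again without overlap, with a smaller change and a level well above that of Zfp563. Zfp974, whose promoter is printed above, had 4.75, 4.60 and 3.96 CPM in the vehicle libraries and 5.86, 6.09 and 6.92 CPM in the Δ9-THC libraries (log2 fold change 0.50 ± 0.10 SE, adjusted p = 0.0420, edgeR). Its pair of libraries numbered 3 lay farthest apart. The other rises were Zfp583 (log2 fold change 0.39), Zfp951 (0.36), Zfp759 (0.33), Zfp959 (0.32), Zfp811 (0.26), Zfp960 (0.24) and Zfp850 (0.18), with adjusted p-values between 0.0301 and 0.0473. No exposed library of these 7 genes fell within the range of its vehicle libraries. All 10 genes were chosen by the test in these same libraries, so the separation adds no support to the calls. Of the stretches of Zfp960, 82.7% occur in other genes, so many of its reads may have gone uncounted as not unique.

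Of the 5 members that fell, 4 were finger genes without KRAB. Zfp574 (ENSMUSG00000045252, chr7:25072567-25083492), with 18 fingers and an exonic GC content of 58.6%, had 33.8, 32.4 and 33.4 CPM in the vehicle libraries and 27.3, 28.6 and 27.8 CPM in the Δ9-THC libraries (log2 fold change -0.25 ± 0.037 SE, adjusted p = 0.0301, edgeR), with all exposed libraries below the vehicle libraries. Zfp580 had 4.23, 3.76 and 3.74 CPM in the vehicle libraries and 2.51, 2.98 and 3.02 CPM in the Δ9-THC libraries (log2 fold change -0.46 ± 0.10 SE, adjusted p = 0.0498, edgeR), the largest fall at the lowest level. Zfp710 had 109.7, 112 and 111 CPM in the vehicle libraries and 103, 101 and 102 CPM in the Δ9-THC libraries (log2 fold change -0.12 ± 0.025 SE, adjusted p = 0.0422, edgeR), a small change between tight groups. Zfp687 (log2 fold change -0.16, adjusted p = 0.0441) and the KRAB gene Zfp707 (-0.33, adjusted p = 0.0394) completed the 5, by the same edgeR test. The GC content of the 5 lay at 55.2% or above.

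The largest rises did not pass the test. Zfp972, a gene without a finger pattern at a low level, had 0.700, 0.620 and 0.389 CPM in the vehicle libraries and 0.922, 1.07 and 1.34 CPM in the Δ9-THC libraries (log2 fold change 0.94 ± 0.24 SE, adjusted p = 0.0634, edgeR). Zfp987 had 27.95, 24.4 and 16.1 CPM in the vehicle libraries and 28.7, 33.8 and 45.5 CPM in the Δ9-THC libraries (log2 fold change 0.65 ± 0.24 SE, adjusted p = 0.131, edgeR). Zfp534 had 67.7, 60.5 and 40.97 CPM in the vehicle libraries and 68.2, 78.1 and 105 CPM in the Δ9-THC libraries (log2 fold change 0.57 ± 0.22 SE, adjusted p = 0.151, edgeR). In each of these genes the vehicle library numbered 3 was the lowest of the 6 and the exposed library numbered 3 the highest, and in Zfp987 and Zfp534 the libraries numbered 1 lay close together. Libraries of 1 number mirrored each other in these tables, as given below, so the lowest and the highest value are not separate observations. Only members with an unadjusted p under 0.05 by edgeR were named here. Among these, Zfp979 (0.55), Zfp995 (0.46) and Zfp781 (0.45) were the other large log2 differences above 0 that were not called by edgeR. Those below 0 were Zfp764 (-0.44), Zfp750 (-0.39), Zfp787 (-0.27), Zfp771 (-0.24) and Zfp956 (-0.23), with adjusted p-values of 0.0516 for Zfp764 and 0.0625 for Zfp771 by edgeR. Zfp750 is known as a regulator of epidermal differentiation. Zfp972, Zfp987, Zfp534, Zfp979, Zfp781 and Zfp764 share between 27.1% and 96.3% of their stretches with other genes.

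**Figure D2:**
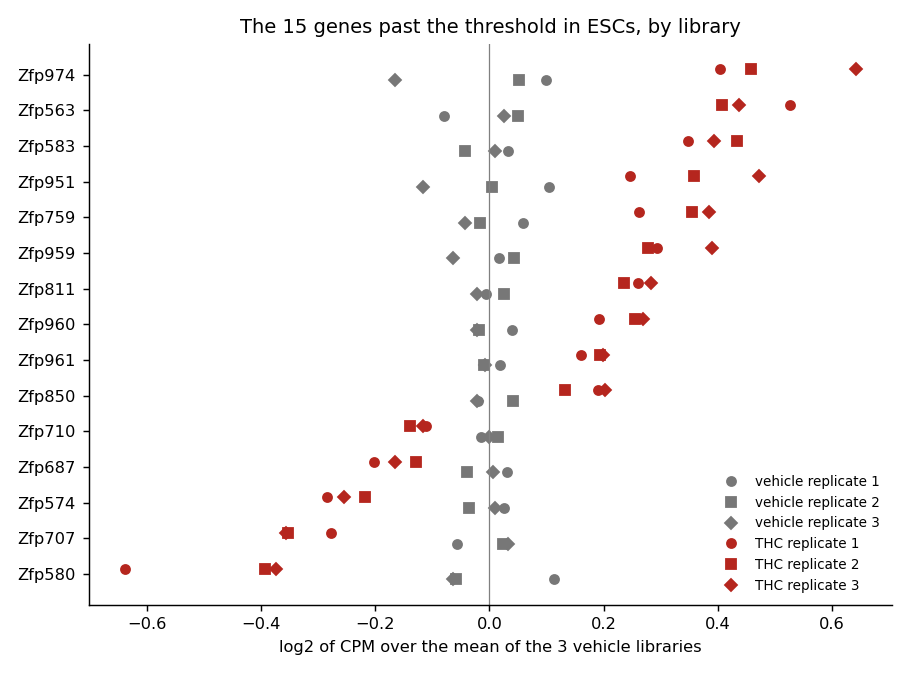
CPM of the members called in ESCs by edgeR, divided by the mean of the vehicle libraries of the same gene (log2 scale), in each of the 6 ESC libraries, with the replicate number given by the shape of the point and exposure by its colour. Exposed libraries lie on 1 side of the vehicle libraries in each gene, and the log2 fold changes run from 0.50 for Zfp974 to -0.46 for Zfp580. The genes were chosen by the test in these same libraries, so this separation adds no support to the calls.

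The types of protein are described side by side. Over all genes, 3.37% were called higher and 3.55% lower, and 14.9% and 13.8% were so at an unadjusted p under 0.05. Of 114 KRAB genes in ESCs, 96 were above 0, with a median log2 fold change of 0.17, 9 called higher and 1 called lower, and 44 higher and 3 lower at an unadjusted p under 0.05. Of 56 finger genes without KRAB, 29 were above 0, with a median of 0.0044, 1 called higher and 4 called lower, and 7 higher and 12 lower at an unadjusted p under 0.05. These types also differ in GC content, as given above. With the GC and length correction the medians were 0.040 and 0.019, and 71 of 114 and 32 of 56 were above 0.

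GC content went with the shift across the members. Spearman's rho between exonic GC content and the log2 fold change in ESCs was -0.70 over 178 members, -0.59 within the 114 KRAB genes and -0.69 within the 56 finger genes without KRAB. Over the 12905 other genes with a GC content it was -0.53. These are descriptions across genes of the same 6 libraries, which are not independent. In the 56 members with a GC content under 40%, 53 were above 0 with a median log2 fold change of 0.28, and the 776 other genes of that GC content had a median of 0.17, with 706 above 0. From 40 to 45% the medians were 0.15 in 51 members and 0.093 in other genes, from 45 to 50% 0.075 in 25 members and 0.021, and from 50 to 55% 0.00051 in 26 members and -0.045. At 55% and above, 2 of 20 members were above 0, with a median of -0.17 against -0.11 in other genes. All 10 members called higher had a GC content under 45% and all 5 called lower had one of at least 55%. Members and other genes thus followed the same order over GC content, and the gap between their medians was not tested.

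Correction for GC content and length, as a smooth curve over all genes in each library, took the rho of the members from -0.70 to -0.17 and their median from 0.11 to 0.035, with 109 of 178 (61.2%) above 0. Under 40% GC the median with correction was 0.057 in members and -0.0073 in other genes. At 55% and above it was -0.030 and 0.0041. Promoter GC content went less closely with the log2 fold change than transcript GC content did: over the 149 members with a promoter in ESCs the rho was -0.47 for the promoter and -0.66 for the transcript. Whether library preparation or the cells gave the relation with GC content was not tested.

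**Figure D3:**
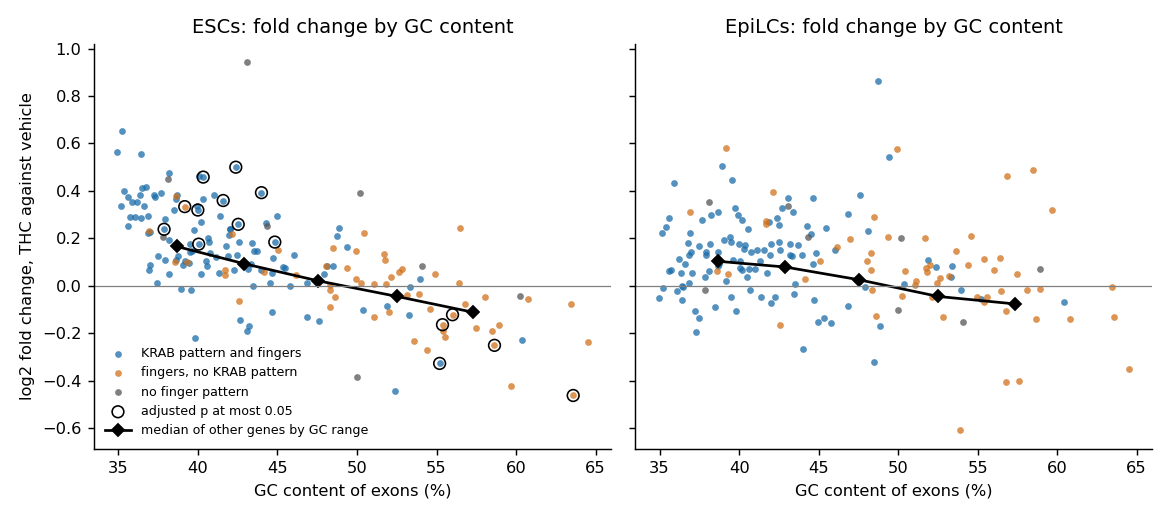
Log2 fold change (Δ9-THC against vehicle) of each member against its exonic GC content in percent, in ESCs and in EpiLCs, with KRAB genes and finger genes without KRAB marked apart circles around the members called in ESCs, and the median of the other genes in 5 ranges of GC content as joined diamonds. In ESCs the members fall from left to right (rho -0.70, n = 178), and in EpiLCs the relation is weaker (rho -0.23, n = 180).

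In EpiLCs, 0 of 180 members were called by edgeR (0.0% of all 13717 genes), 25 had an unadjusted p under 0.05 and DESeq2 called 1. At that unadjusted threshold 21 were higher and 4 lower, against 8.28% and 6.8% of all genes. The median log2 fold change was 0.089, against 0.0030 over all genes, and 127 of 180 (70.6%) were above 0. The 3 exposed libraries lay above the 3 vehicle libraries in 29 members and below them in 7, against 11.2% and 10.6% of all genes. KRAB genes had a median of 0.12 (85 of 114 above 0) and finger genes without KRAB 0.053 (37 of 58). With the GC and length correction the median was 0.049, 111 members were above 0, 0 were called by edgeR and 23 had an unadjusted p under 0.05 (13.4% of all genes). In 1 model over all 12 libraries, 6 members were called in EpiLCs, 4 higher and 2 lower, against 3.31% of all genes.

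Zfp691, a finger gene without KRAB, had 6.77, 6.51 and 6.33 CPM in the vehicle libraries and 4.05, 4.37 and 4.42 CPM in the Δ9-THC libraries (log2 fold change -0.61 ± 0.087 SE, adjusted p = 0.144, edgeR). All 3 exposed libraries lay well below the vehicle libraries, and this was the only member that DESeq2 called in EpiLCs (adjusted p = 0.0429, 0.751% of the genes with an adjusted p). In ESCs, Zfp691 had 4.38, 5.22 and 5.44 CPM in the vehicle libraries and 5.57, 4.65 and 4.44 CPM in the Δ9-THC libraries (log2 fold change -0.034 ± 0.12 SE, adjusted p = 0.884, edgeR), with overlap. In Zfp771, where the exposed libraries lay below the vehicle libraries in both cell types, values were 5.25, 5.19 and 5.31 CPM in the vehicle libraries and 4.05, 4.21 and 4.08 CPM in the Δ9-THC libraries in EpiLCs (log2 fold change -0.35 ± 0.084 SE, adjusted p = 0.179, edgeR). Zfp566 (-0.32) and Zfp622 (-0.17) were the other log2 differences below 0 with an unadjusted p under 0.05.

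The largest differences above 0 in EpiLCs were in Zfp551, with 1.06, 1.04 and 0.620 CPM in the vehicle libraries and 1.48, 1.53 and 2.02 CPM in the Δ9-THC libraries (log2 fold change 0.86 ± 0.23 SE, adjusted p = 0.204, edgeR), and Zfp759, with 5.53, 5.34 and 4.20 CPM in the vehicle libraries and 6.86, 7.20 and 8.57 CPM in the Δ9-THC libraries (log2 fold change 0.58 ± 0.14 SE, adjusted p = 0.184, edgeR). Neither gene overlapped between the groups, and neither passed the test. Zfp819 had 9.38, 8.45 and 11.4 CPM in the vehicle libraries and 14.4, 15.98 and 12.01 CPM in the Δ9-THC libraries (log2 fold change 0.54 ± 0.15 SE, adjusted p = 0.204, edgeR). Zfp644, which works with the histone methyltransferases G9a and GLP, had 70.99, 59.5 and 56.96 CPM in the vehicle libraries and 71.4, 86.7 and 88.5 CPM in the Δ9-THC libraries (log2 fold change 0.40 ± 0.12 SE, adjusted p = 0.221, edgeR). Zfp697 (0.58), Zfp651 (0.49), Zfp945 (0.43) and Zfp786 (0.38) were the other log2 differences named by the same rule. Of the genes called in ESCs, Zfp759 was thus also high in exposed EpiLCs, while Zfp563 had 5.25, 4.90 and 3.76 CPM in the vehicle libraries and 4.52, 4.96 and 6.07 CPM in the Δ9-THC libraries in EpiLCs, with overlap.

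The difference of the Δ9-THC effect between the cell types was tested in 1 model over the 174 members in both tables. By edgeR, 0 members were called (0.0322% of 12410 genes), and 21 had an unadjusted p under 0.05 (13.7% of all genes). DESeq2 called 1 member, Zfp941, against 1.07% of all genes, with a log2 fold change of -0.11 in ESCs and 0.37 in EpiLCs and an adjusted p of 0.0311 (0.0803 by edgeR). It was picked out after its values were seen. Side by side, 96 members were above 0 in both cell types, 19 below 0 in both, 32 above 0 only in ESCs and 27 only in EpiLCs. At an unadjusted p under 0.05 in each cell type, 7 were higher in both and 1 lower in both. The same counts over all genes are not given here. Since most members were above 0 in each cell type by itself, these counts do not show a shared response.

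The shift was not equal over the replicate numbers. In ESCs, the median difference of log2 CPM between the exposed and the vehicle library of the same number was -0.0041 for number 1, 0.089 for number 2 and 0.26 for number 3 over the members, while over all genes each was near 0. For KRAB genes it was 0.026, 0.11 and 0.38, and for finger genes without KRAB -0.081, -0.014 and 0.017. In EpiLCs it was -0.014, 0.0063 and 0.27 over the members, and -0.040, -0.00072 and 0.40 for KRAB genes. In both cell types the libraries numbered 3 thus held most of the difference. In EpiLCs the same gene without a symbol took 3.88% of the counts of vehicle library 3 and 0.418% of those of exposed library 3, against 0.779% and 3.97% for number 1 and 2.193% and 1.795% for number 2, and its part was not tested.

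The slope of the same difference against GC content over all genes moved with it. Per 10 percentage points of GC content it was -0.11, -0.10 and -0.23 log2 units in ESCs for numbers 1, 2 and 3, and -0.026, 0.0012 and -0.26 in EpiLCs. Over the members, rho between GC content and the difference was -0.20, -0.45 and -0.76 in ESCs and 0.099, 0.16 and -0.59 in EpiLCs. Without the libraries numbered 3, the median log2 fold change of the members was 0.040 in ESCs and 0.0030 in EpiLCs, edgeR called 0 members in either cell type (33 and 28 with an unadjusted p under 0.05), and the rho with GC content was -0.43 in ESCs and 0.21 in EpiLCs. Without the libraries numbered 1, 32 members were called in ESCs, 24 higher and 8 lower, against 13.4% of all genes, with a median of 0.17. Without those numbered 2, 0 were called by edgeR and 42 had an unadjusted p under 0.05. The shares of all genes at that unadjusted threshold in these fits are not given here. In the adjusted tables the exposed and the vehicle library of 1 number are not independent: their deviations from the group means ran against each other, with r between -0.977 and -0.987 over the genes in ESCs. Between an exposed and a vehicle library of different numbers, r was between 0.37 and 0.60 in ESCs. Deviations from a group mean add up to 0 over the group, so these positive values largely follow from the opposite same-numbered pairs. What batches the adjustment was given is not given in the sources used here, and its part in these differences was not tested.

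**Figure D4:**
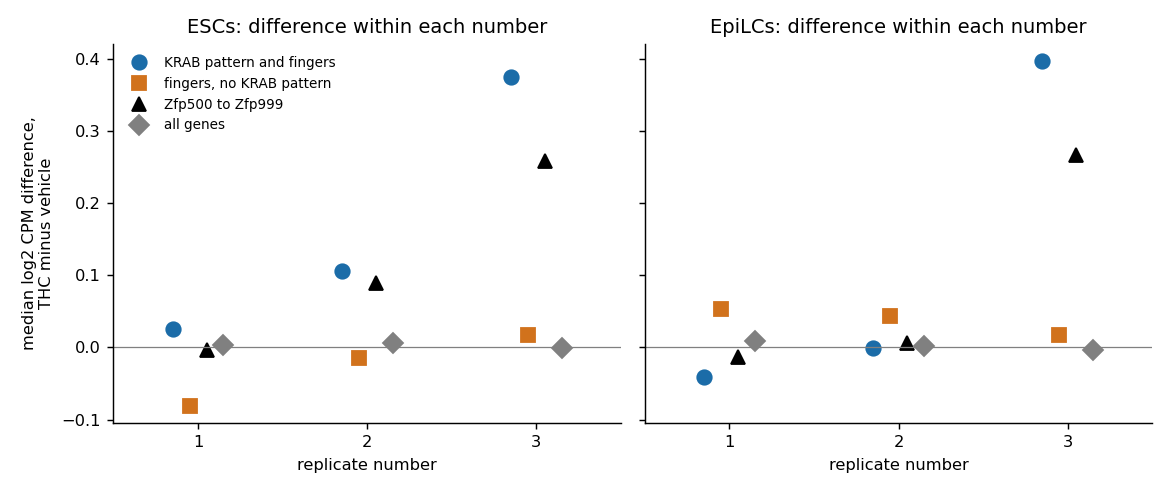
Difference of log2 CPM between the Δ9-THC and the vehicle library of the same replicate number, as the median over KRAB genes, finger genes without KRAB, the members together and all genes, for numbers 1, 2 and 3 in ESCs and EpiLCs. The KRAB genes stand at 0.38 in ESCs and 0.40 in EpiLCs for number 3, and between -0.040 and 0.11 for numbers 1 and 2.

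The cluster on chromosome 4 (chr4:145510759-147848366, GRCm38) held the same imbalance toward number 3. It contains 18 members, all with KRAB and fingers, at a median GC content of 36.6%, and this region has been linked to silencing of retrotransposons. In ESCs, the log2 fold change was above 0 in 18 of 18 members, with a median of 0.34. Of these, 8 had an unadjusted p under 0.05 (14.9% of all genes were higher at that threshold), 0 were called by edgeR and 3 (Zfp978, Zfp981 and Zfp985) by DESeq2 (7.19% of the genes with an adjusted p). With the GC and length correction the median was 0.095. By replicate number the median difference was -0.028 (7 of 18 above 0), 0.25 (16 of 18) and 0.75 (18 of 18). In EpiLCs, where 17 of the genes were measured, 11 were above 0 in the fit with a median of 0.11, and by number the median was -0.039 (6 of 17), -0.26 (5 of 17) and 0.42 (16 of 17). A median of 68.0% of the 50-base stretches of these genes occur in other genes. Reads that fit several copies were not counted, so the counts are uncertain, and genes this alike cannot be taken as independent of each other. The printed fingers of Zfp534 and Zfp987, which differ at 1 base, show how close the copies are.

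**Figure D5:**
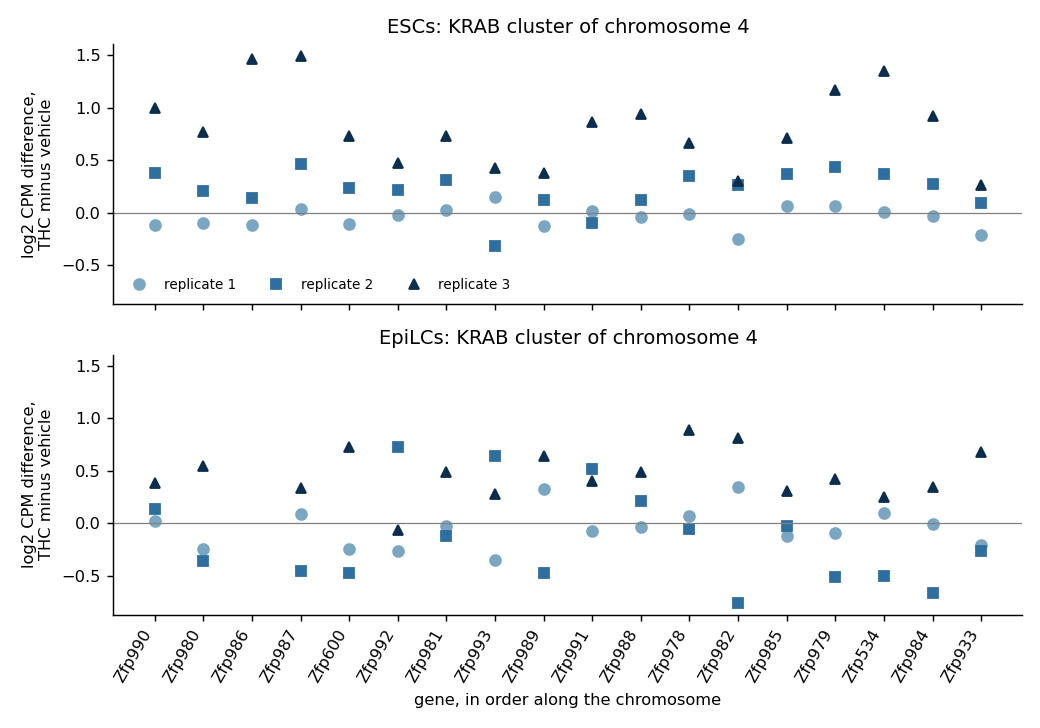
Difference of log2 CPM between the Δ9-THC and the vehicle library of the same replicate number for each gene of the chromosome 4 cluster, in ESCs (18 genes) and EpiLCs (17 genes). Points of number 3 lie above 0 in 18 of 18 genes in ESCs and 16 of 17 in EpiLCs, whereas those of number 1 lie around 0.

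Other clusters followed their GC content in ESCs. The cluster of KRAB genes on chromosome 17 (chr17:21383748-22867134) had a median GC content of 38.0% over its 14 members, of which 13 were measured in ESCs. These 13 had a median log2 fold change of 0.32 with 12 of 13 above 0, and by number -0.015, 0.27 and 0.80. On chromosome 13, the cluster of 7 members around Zfp759 (median GC content 38.6%) had a median of 0.24 with 7 of 7 above 0. The chromosome 7 cluster of Zfp977 and Zfp975 (40.8%) had a median of 0.14 with 9 of 9 above 0. In contrast, the cluster of 10 members around Zfp553 and Zfp771 (chr7:127233061-127885996, 53.3%) had a median of -0.082 with 2 of 10 above 0. The cluster of Zfp580 had 0 of 3 measured members above 0, at a median of -0.19. The GC contents of these 3 were 63.6% (Zfp580), 63.5% (Zfp628) and 55.4% (Zfp865). In EpiLCs the chromosome 17 cluster had a median of 0.085 with 10 of 14 above 0, and the Zfp553 cluster 0.039 with 7 of 10.

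Genes of the corepressors that KRAB proteins recruit were taken from a list. Of its 25 genes of the TRIM28 pathway and of associated chromatin factors, all measured in both cell types, 19 were above 0 in ESCs, where their median was 0.047 on the log2 scale, and 0.0080 with the GC and length correction. By edgeR, Cbx3 (0.26, adjusted p = 0.0283) and Cbx1 (0.15, adjusted p = 0.0466), which code for heterochromatin proteins, rose in ESCs. Chd3 (-0.19, adjusted p = 0.0427) and Mta1 (-0.11, adjusted p = 0.0480), which code for subunits of the NuRD complex, fell in ESCs by the same edgeR test. With the GC and length correction none of these 4 was called by edgeR, at 0.17 for Cbx3, 0.060 for Cbx1, -0.078 for Chd3 and 0.0013 for Mta1, where the direction of Mta1 turned. Trim28 itself stood at 1302 ± 33.6 CPM in vehicle ESCs (SD over 3 libraries) and at 1201 ± 26.8 CPM in exposed ESCs (log2 fold change -0.12 ± 0.032 SE, adjusted p = 0.0751, edgeR), and its log2 fold change was -0.0041 with the correction. In EpiLCs 14 of the 25 were above 0 with a median of 0.039, 0 were called by edgeR, and Trim28 had 1116 ± 116 and 921 ± 104 CPM.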

How the data were processed

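RNA-seq of mouse ESCs and EpiLCs was analysed from the count tables that the authors deposited, 1 per cell type. Per the study's methods, reads were mapped with STAR (unique hits), counted over exons with HTSeq without regard to strand, stripped of genes with few counts, and adjusted for batch with ComBat-seq, so the deposited counts are whole numbers that keep library depth but not the raw replicate spread. The submitters' processing notes also name bcl2fastq 2.19.1.403, FastQC and DESeq2, and both mm10 and GRCm39 as builds. Libraries were prepared with KAPA mRNA HyperPrep or ABclonal kits, and which library had which is not given in the sources used here. 0 columns belonged to no sample. The 6 PGCLC libraries and the authors' tables of differential genes, which hold their own fold changes and p-values, were not used here.

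Genes with a total above 10 counts were kept, scaled by TMM, and tested per cell type with the quasi-likelihood test of edgeR 4.0.16 (R 4.3.3) on all genes, with Benjamini-Hochberg adjustment. The difference between cell types was an interaction term in a model of the 4 groups. CPM use TMM-scaled library sizes, and log2 CPM a prior count of 2. Offsets for GC content and length came from natural splines with 5 degrees of freedom, fitted per library over all genes. Alternatives included DESeq2 1.42.0, RLE scaling, other filters, left-out libraries and the replicate block. The scripts were tested on simulated data. Exons, GC content, coding sequences and clusters came from GENCODE M21 (GRCm38), matched by gene identifier, so coordinates describe the genes and not the read positions, since the build of the counts is uncertain. The members and all gene lists were chosen with earlier results of these data known.

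Named genes were chosen by rule: per cell type, the 8 largest increases and 8 largest decreases with an unadjusted p under 0.05, every member called (at most 30), the 5 highest levels per kilobase, the 5 largest ratios of vehicle levels in each direction, and 24 members with a known role, of which 23 were in a table. The main model had exposure as its only term and no block for replicate number. Same-numbered libraries deviated in opposite directions and are thus not independent, so its p-values may be too small. With the block, edgeR called 0 members in ESCs.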

Additional observations from a re-analysis of the deposited data

How the results depend on the processing

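The libraries share replicate numbers, and exposed and vehicle libraries of 1 number deviated in opposite directions (r over all genes -0.987, -0.979 and -0.977 in ESCs, -0.979, -0.979 and -0.985 in EpiLCs). The numbers thus tied the libraries together, although as opposites. They were left out of the main model, whose p-values may therefore be too small. With the replicate block, edgeR called 0 members in ESCs (43 at an unadjusted p under 0.05), 0 in EpiLCs (7) and 0 for the difference (3). The 15 calls in ESCs also went to 0 with GC offsets, with GC and length offsets alone or with the block, and in the model of all 12 libraries (37, 34, 11 and 44 members at an unadjusted p under 0.05). Of the unadjusted counts in this paragraph, only the 34 has a share of all genes given here (18.6%). The ESC median log2 fold change of 0.11 was 0.033 with GC offsets, 0.035 with GC and length offsets and 0.036 with the block added. In EpiLCs DESeq2 called 1 member and the 12-library model 6, and DESeq2 called 1 for the difference. RLE scaling, no filter and a minimum of 10 counts left 15, 0 and 0 members called in ESCs, in EpiLCs and for the difference. Leaving out 1 library, or both libraries of 1 number (chosen after seeing the data), gave 0 to 32 calls and medians from 0.040 to 0.17 in ESCs, and 0 calls and medians from 0.0030 to 0.15 in EpiLCs. The Spearman correlation with GC content ran from -0.73 to -0.43 in ESCs and turned positive in EpiLCs without both libraries numbered 3 (0.21, against -0.39 without both numbered 2), without vehicle 3 (0.0027) and without Δ9-THC 3 (0.015). The cause was not tested.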
